A study of Homo sapiens with 28 samples.

Results

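The genes described here are the enzymes and regulators of polyamine metabolism together with the pair of enzymes that make and split argininosuccinate. They were taken from the gene count table by symbol, which gave 10 genes (ODC1, AMD1, SRM, SMS, SAT1, OAZ1, OAZ2, AZIN1, ASS1 and ASL) of 58278 gene rows. Polyamines (putrescine, spermidine and spermine) are small, positively charged molecules that bind nucleic acids and are needed in quantity by dividing cells. Ornithine decarboxylase (ODC1) makes putrescine from ornithine, AMD1 supplies the aminopropyl donor by decarboxylating S-adenosylmethionine, and the synthases SRM and SMS add aminopropyl groups to give spermidine and spermine. SAT1 acetylates spermidine and spermine for breakdown or export, the antizymes OAZ1 and OAZ2 bind ODC1 and send it to the proteasome, and the antizyme inhibitor AZIN1 releases ODC1 from them. ASS1 joins citrulline and aspartate into argininosuccinate, which ASL splits into arginine and fumarate, and arginine can in turn give rise to ornithine.

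The study sequenced poly(A) RNA from HCT116, a human colorectal carcinoma line, in 16 xenograft tumors and 12 cultures. The tumors came from HCT116 cells carrying luciferase and GFP, injected under the skin of male NOD SCID mice that were 5 weeks old. From 8 days later the mice were dosed daily by gavage for 23 days with vehicle (3 Control tumors), the CDK4 and CDK6 inhibitor Palbociclib at 100 mg/kg/day (5 tumors), the glutaminase inhibitor Telaglenastat at 150 mg/kg/day (4 tumors, spelled Telaglenestat in the sample labels) or both drugs at these doses (4 combination tumors). The cultures were lines grown in medium from 3 tumors of each group (3 libraries per group), grown without either drug, and no source used here says which tumor gave which line. All groups therefore share 1 parental line and 1 immunodeficient host strain, and a tumor library also holds whatever reads its mouse stroma contributed. These are bulk libraries, in which fewer cells of a type and less RNA per cell cannot be told apart.

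Since ODC1 is a textbook target of the transcription factor MYC, which binds the E-box letters CACGTG, the 250 bases before each annotated start were searched for these letters, which read the same on both strands. Promoter windows from RefSeq (GRCh38.p14) were found for 9 of the 10 genes, and 3 of the 9 held the motif in at least 1 window, against 9.84% of 14896 protein-coding genes. The matching stretches, each 30 bases long and written 5′ to 3′ on the gene's strand with the E-box in capitals, were the following.
SRM, chr1:11060200-11060229, minus strand, motif beginning 199 bases before the start: ccggccgggcccCACGTGgcccctggagcg
ODC1, chr2:10448024-10448053, minus strand, motif beginning 29 bases before 1 of its 2 starts: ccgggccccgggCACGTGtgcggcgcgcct
ASS1, chr9:130444878-130444907, plus strand, motif beginning 71 bases before 1 of its 2 starts: gcgcgtccccgcCACGTGtccccggtcacc
The letters were not in the windows of AMD1, SMS, SAT1, OAZ1, OAZ2 and ASL. A match describes the sequence and does not show that a factor binds there.

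Total counts per library ranged from 6273834 to 10617936 in tumors and from 7198540 to 13815675 in cultures. Of all members, SAT1, ODC1 and AZIN1 were counted most deeply (at least 1248, 1854 and 1981 counts in every library), while SRM had as few as 65 counts and ASL as few as 11, so their values carry the widest counting error. Levels are given in CPM, a gene's count relative to its library's scaled total. Reads per gene depended on the GC content of the gene to an extent that differed between treatments, and this bears on every result below because the members span the GC range. The slope of the log2 deviation of a gene from its mean over tumors, per SD of GC content, was 0.246 to 0.257 in Control tumors and 0.0968 to 0.359 in Palbociclib tumors. It was -0.385 to -0.300 in Telaglenastat tumors and -0.283 to -0.161 in combination tumors. SRM (63.7% GC), OAZ1 (61.2%), ASL (59.4%) and ASS1 (57.4%) are GC-rich, with 95.6%, 90.6%, 85.6% and 79.6% of tested genes below them. AMD1 (37.7%), AZIN1 (42.3%), SAT1 (43.3%) and SMS (46.5%) lie at the other end, with OAZ2 (48.5%) and ODC1 (51.2%) between. The main differences are therefore given as counted and again with each library's trend across genes of different GC content and transcript length taken out ("corrected"). A value with no corrected figure beside it is as counted only. Treatment and GC slope cannot be told apart in the Telaglenastat and combination tumors, so neither scale is taken as the true one. Palbociclib tumor 2 had the lowest slope of its group (the other 4 were at 0.313 to 0.359) and Telaglenastat culture 2 the highest of all cultures (0.418). Some of the results that rest on them are given without them below.

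**Figure D1:**
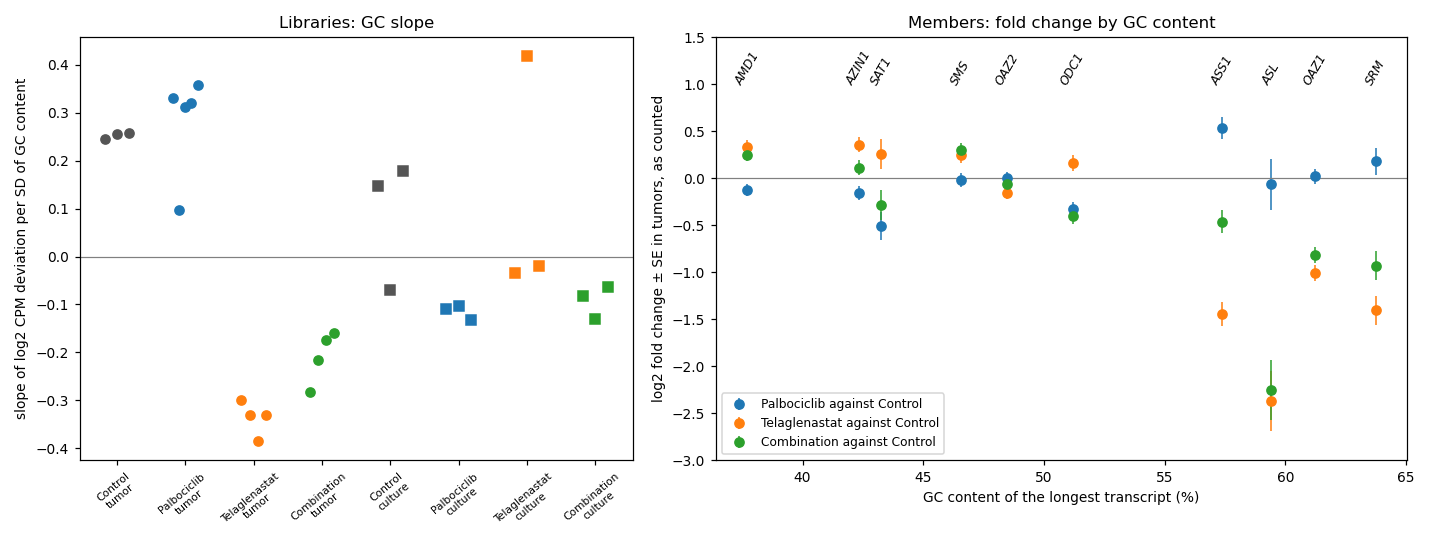
Left, slope of the log2 CPM deviation per SD of GC content in each library (circles tumors, squares cultures, 1 point per library). Right, log2 fold change against Control in tumors (± SE, as counted) for each of the 10 genes by the GC content of its longest transcript. Telaglenastat and combination tumors have slopes below 0, and in these comparisons the 4 genes above 57% GC are the lowest.

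The summed markers of several cell types, as counted and without the GC and length correction, also differed between the tumor groups. In CPM scaled over all 28 libraries, 7 colorectal epithelial markers summed to 2701 to 3242 in Control, 2944 to 4086 in Palbociclib, 1581 to 1744 in Telaglenastat and 2302 to 2580 in combination tumors, with at least 6 of the 7 at 1 CPM or more. The 8 fibroblast markers summed to 151 to 192, 109 to 187, 48.0 to 61.9 and 95.4 to 142 in the same order, with 3 or 4 at 1 CPM or more and LUM at 0 throughout. The 6 leukocyte markers summed to 14.9 to 19.8, 22.2 to 31.0, 3.02 to 10.05 and 10.2 to 16.7, while 4 endothelial markers reached at most 2.57 and 3 erythroid markers at most 0.313. These human gene rows were not summed on the corrected scale, so their differences cannot be told apart from the GC slopes. The part of these markers in the member differences was not tested.

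In the tumors, the members moved differently under each drug. With Palbociclib, ODC1 and SAT1 were lower and ASS1 was higher. With Telaglenastat and with the combination, the GC-rich genes SRM, OAZ1, ASS1 and ASL were lower and AMD1 and SMS higher as counted, and of these changes only the fall of ASL (under either treatment) and that of ASS1 (under Telaglenastat alone) also passed the test after correction. The comparisons with Control share the same 3 Control tumors. Where groups are said not to overlap, the share of all genes that separate likewise was not computed, so separation describes the values alone.

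With Palbociclib, 2 of 10 members were lower than in Control tumors (all tested genes: 3.6% lower) and 1 was higher (all: 2.55%) at an adjusted p under 0.05. After correction the same 3 members passed, 2 lower (all: 4%) and 1 higher (all: 3.72%). With Telaglenastat, 5 members were lower (all: 28.5%) and 3 higher (all: 22.6%), which became 2 lower (all: 8.4%) and 1 higher (all: 6.33%) after correction. With the combination, 5 were lower (all: 26.9%) and 2 higher (all: 17.6%), which became 3 lower (all: 13.1%) and 0 higher (all: 13.3%). On the corrected scale edgeR gave 5 members an unadjusted p under 0.05, and DESeq2 on the counts called 3 members higher (AMD1, SMS and AZIN1). The median log2 fold change over the 10 members was -0.04 with Palbociclib, 0.0042 with Telaglenastat and -0.34 with the combination, beside 0.00067, 0.03 and -0.04 over all genes tested.

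**Figure D2:**
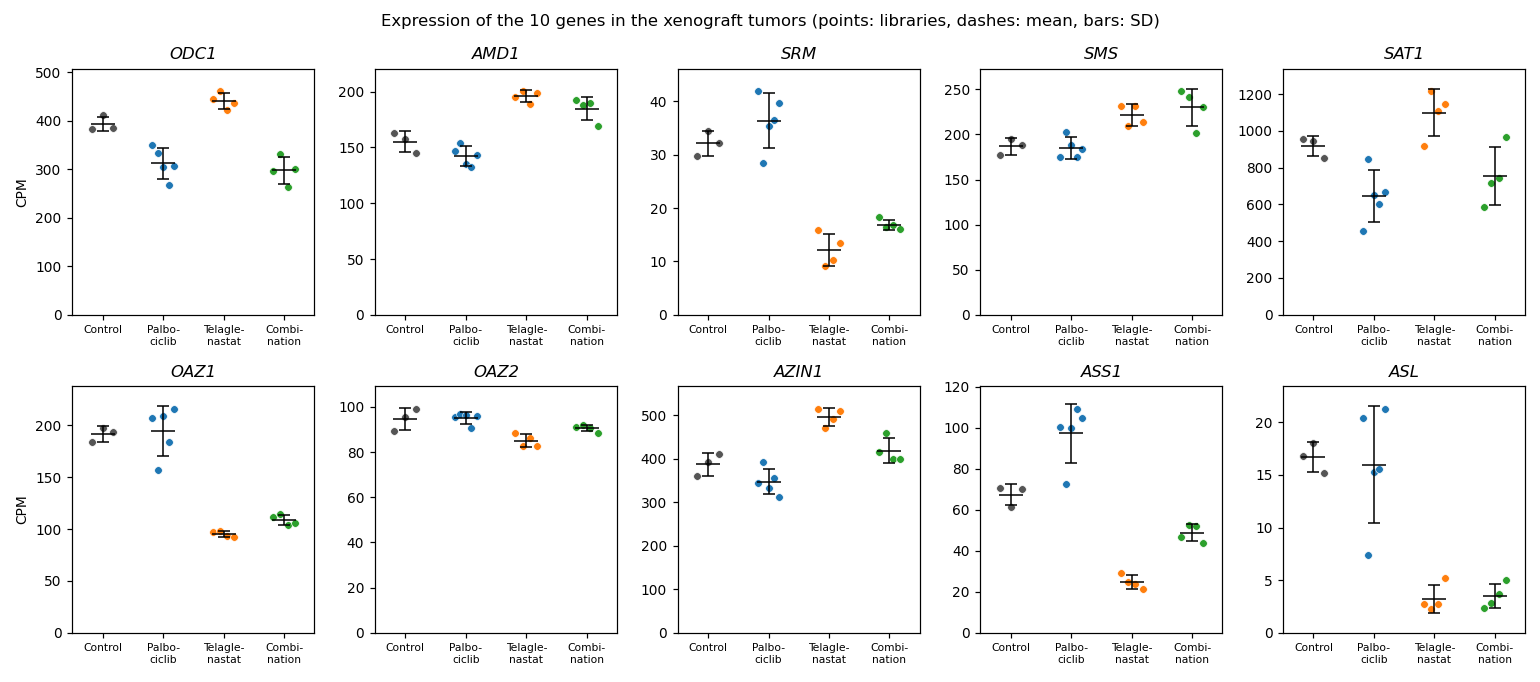
Normalised CPM (axes from 0) of the 10 genes in the 16 tumors by treatment, with 1 point per library, the group mean as a dash and the SD as a bar. SRM, OAZ1, ASS1 and ASL are lower in every Telaglenastat and combination tumor than in any Control tumor, and ODC1 is lower in every Palbociclib and combination tumor than in any Control tumor.

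ODC1 (chromosome 2, 10439968 to 10448504, GRCh38, minus strand), the enzyme that commits ornithine to polyamines, was lower in the tumors given Palbociclib, alone or combined. Its level, in CPM scaled over the tumors, was 383, 411 and 386 in the Control tumors, 351, 333, 306, 267 and 307 in the Palbociclib tumors, 445, 462, 422 and 436 in the Telaglenastat tumors, and 297, 331, 263 and 302 in the combination tumors. All Palbociclib and combination tumors lay below the lowest Control tumor, and all Telaglenastat tumors lay above the highest. The log2 fold change was -0.33 ± 0.08 (SE) with Palbociclib (adjusted p = 0.0153, and -0.34 with adjusted p = 0.0104 after correction) and -0.40 ± 0.09 with the combination (adjusted p = 0.000753, and -0.26 with adjusted p = 0.0259 after correction). The Palbociclib call was lost when Control tumor 2 (adjusted p = 0.0982) or Control tumor 3 (adjusted p = 0.0502) was left out. The Telaglenastat difference was 0.16 ± 0.09 (adjusted p = 0.116) as counted and 0.39 (adjusted p = 0.00325) after correction. On the uncorrected counts, DESeq2 called ODC1 higher with Telaglenastat, as did edgeR with the size factors of DESeq2. Between the drugs, the combination was below Telaglenastat alone by a log2 difference of -0.56 ± 0.08 (adjusted p = 5.21e-05, and -0.65 with adjusted p = 1.04e-05 after correction), and it was not distinguishable from Palbociclib alone (-0.07 ± 0.08, adjusted p = 0.483).

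The aminopropyl arm of synthesis did not follow ODC1. AMD1 (chromosome 6, 110874770 to 110895713, plus strand), the S-adenosylmethionine decarboxylase, ranged from 145 to 163 CPM in Control, 132 to 154 in Palbociclib, 189 to 201 in Telaglenastat and 170 to 192 in combination tumors, so that every tumor given Telaglenastat was above every tumor that was not. Its log2 fold change was 0.34 ± 0.07 with Telaglenastat (adjusted p = 0.000499) and 0.25 ± 0.07 with the combination (adjusted p = 0.0061, a call lost without Control tumor 3). After correction these were -0.04 (adjusted p = 0.738) and 0.04 (adjusted p = 0.715). Among the members, AMD1 has the lowest GC content.

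SMS (chromosome X, 21940573 to 21994835, plus strand), the spermine synthase, also rose with Telaglenastat, with some overlap between groups. Its level was 177 to 195 CPM in Control, 175 to 203 in Palbociclib, 209 to 232 in Telaglenastat and 202 to 248 in combination tumors. The rise was 0.24 ± 0.08 with Telaglenastat (adjusted p = 0.0134, lost without Control tumor 1; corrected 0.12, adjusted p = 0.295) and 0.30 ± 0.08 with the combination (adjusted p = 0.0039, and 0.13 with adjusted p = 0.162 after correction). Neither gene passed the test with Palbociclib, at -0.13 ± 0.07 for AMD1 (adjusted p = 0.337) and -0.02 ± 0.07 for SMS (adjusted p = 0.951).

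SRM (chromosome 1, 11054584 to 11060024, minus strand), the spermidine synthase and the member with the highest GC content, moved the opposite way as counted. Its level was 29.8, 34.4 and 32.3 CPM in the Control tumors and 41.9, 28.5, 35.3, 36.5 and 39.6 in the Palbociclib tumors. In the Telaglenastat tumors it was 15.8, 9.06, 10.3 and 13.4 CPM, and in the combination tumors 18.3, 16.4, 16.8 and 16.1. No tumor given Telaglenastat overlapped a tumor without it. The log2 fold change was -1.41 ± 0.16 with Telaglenastat (adjusted p = 4.69e-07) and -0.93 ± 0.15 with the combination (adjusted p = 5.58e-05). After the GC and length trend was removed, the levels were 19.2 to 21.8 CPM in Control, 15.6 to 26.5 in Telaglenastat and 20.5 to 30.1 in combination tumors, and the log2 fold changes were 0.03 (adjusted p = 0.941) and 0.19 (adjusted p = 0.365). The SRM fall therefore depends on the scale. With Palbociclib the difference was 0.18 ± 0.14 (adjusted p = 0.568).

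SAT1 (chromosome X, 23783173 to 23786226, plus strand), the spermidine and spermine acetyltransferase that starts polyamine breakdown, was lower with Palbociclib. The Control tumors had 954, 945 and 853 CPM and the Palbociclib tumors 455, 847, 649, 603 and 667. The Telaglenastat tumors had 919, 1217, 1107 and 1148 CPM and the combination tumors 587, 717, 743 and 966. All Palbociclib tumors were below the lowest Control tumor, Palbociclib tumor 2 by little, while the combination tumors ran from below to above the Control range. The log2 fold change with Palbociclib was -0.51 ± 0.15 (adjusted p = 0.0476, and -0.49 with adjusted p = 0.032 after correction), and the adjusted p rose to between 0.0736 and 0.166 when any library of the comparison other than Palbociclib tumor 2 was left out and fell to 0.00684 without that tumor. With DESeq2 the call was also lost (-0.50, adjusted p = 0.0675). The same size of fall separated the combination from Telaglenastat alone (-0.54 ± 0.15, adjusted p = 0.0134, and -0.51 with adjusted p = 0.0129 after correction), a call lost without combination tumor 1. Against Control, the combination difference was -0.28 ± 0.16 (adjusted p = 0.156) as counted and -0.50 (adjusted p = 0.0145) after correction, and the Telaglenastat difference was 0.26 ± 0.16 (adjusted p = 0.184) and 0.01 (adjusted p = 0.975).

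Of the ODC1 regulators, OAZ1 (chromosome 19, 2269509 to 2273490, plus strand), the main antizyme, fell as counted with Telaglenastat. Its level was 184, 198 and 194 CPM in the Control tumors, 207, 157, 209, 184 and 216 in the Palbociclib tumors, 97.4, 97.7, 93.5 and 92.3 in the Telaglenastat tumors and 112, 114, 104 and 106 in the combination tumors. The tumors given Telaglenastat did not overlap the others and varied little among themselves. The log2 fold change was -1.01 ± 0.09 with Telaglenastat (adjusted p = 3.08e-08) and -0.82 ± 0.09 with the combination (adjusted p = 4.61e-07). After correction the sign turned, to 0.21 (adjusted p = 0.0867) and 0.18 (adjusted p = 0.0931), neither past the threshold. For OAZ1 as for SRM, size and direction both depend on the scale.

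OAZ2 (chromosome 15, 64687573 to 64703281, minus strand), the second antizyme, was the steadiest member. Group means over all 8 conditions differed by at most 1.13 times in CPM scaled over all 28 libraries. It was 94.8 ± 4.9 CPM (SD, n = 3) in Control and 85.1 ± 2.84 (SD, n = 4) in Telaglenastat tumors, a log2 difference of -0.16 ± 0.06 (adjusted p = 0.047) that lost its call when any of 5 of the 7 libraries was left out, after correction (-0.18, adjusted p = 0.057), with DESeq2 (-0.11, adjusted p = 0.175) and without the filter on low counts (-0.10, adjusted p = 0.508).

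AZIN1 (chromosome 8, 102826357 to 102893864, minus strand), the antizyme inhibitor, was highest with Telaglenastat. Its level was 360 to 411 CPM in Control, 312 to 392 in Palbociclib, 470 to 515 in Telaglenastat and 399 to 460 in combination tumors, with no overlap between Telaglenastat tumors and any other group. The rise against Control was 0.36 ± 0.08 (adjusted p = 0.000864, and 0.08 with adjusted p = 0.506 after correction). With the combination, AZIN1 did not pass against Control by edgeR on either scale, whereas DESeq2 on the counts called it higher. The combination was below Telaglenastat alone by -0.25 ± 0.07 (adjusted p = 0.0217, and -0.14 with adjusted p = 0.142 after correction), a call lost without Telaglenastat tumor 1 or 4 or combination tumor 3 or 4.

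The argininosuccinate enzymes held the largest rise with Palbociclib (ASS1) and the largest falls with Telaglenastat (ASL, then ASS1) among the members as counted. ASS1 (chromosome 9, 130444929 to 130501274, plus strand) was higher with Palbociclib and lower with Telaglenastat. Its level was 70.4, 61.4 and 70.2 CPM in the Control tumors and 100, 72.6, 100, 109 and 105 in the Palbociclib tumors. It was 29.03, 24.8, 23.7 and 21.3 CPM in the Telaglenastat tumors and 46.7, 52.6, 52.1 and 43.7 in the combination tumors. The 4 treatment groups did not overlap and were ordered Palbociclib, Control, combination, Telaglenastat.

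The ASS1 rise with Palbociclib was 0.53 ± 0.11 on the log2 scale (1.45-fold, adjusted p = 0.00589, and 0.52 with adjusted p = 0.000768 after correction). Palbociclib tumor 2, the lowest of its group, also had the lowest GC slope (0.0968), and without it the rise was 0.62 (adjusted p = 0.000171), while without Control tumor 2 it missed the threshold (0.47, adjusted p = 0.0574). The Telaglenastat fall was -1.45 ± 0.13 (adjusted p = 3.4e-08), and -0.57 ± 0.10 (adjusted p = 0.000486) after correction. Combination tumors were higher than Telaglenastat tumors by 0.98 ± 0.12 (adjusted p = 1.4e-05, and 0.81 with adjusted p = 1.02e-05 after correction) and lower than Palbociclib tumors by a log2 difference of -0.997 ± 0.108 (adjusted p = 4.09e-07, and -0.28 with adjusted p = 0.0284 after correction). Against Control, the combination was lower as counted (-0.46 ± 0.12, adjusted p = 0.00403) and had the opposite sign after correction (0.24 ± 0.10, adjusted p = 0.075), so that its direction depends on the scale. On the corrected scale the levels were 46.2 to 53.7 CPM in Control, 65.1 to 80.3 in Palbociclib, 29.5 to 39.1 in Telaglenastat and 51.9 to 64.6 in combination tumors.

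ASL (chromosome 7, 66075798 to 66093558, plus strand), which releases arginine, fell most of all members under either treatment with Telaglenastat. Its level was 16.8, 18.04 and 15.2 CPM in the Control tumors and 20.4, 7.36, 15.2, 15.6 and 21.3 in the Palbociclib tumors. In the Telaglenastat tumors it was 2.74, 2.23, 2.73 and 5.21 CPM, and in the combination tumors 2.38, 2.84, 3.69 and 5.06. Palbociclib tumor 2 stood below the rest of its group but still above every tumor given Telaglenastat. The log2 fold change was -2.37 ± 0.32 with Telaglenastat (5.17-fold lower, adjusted p = 4.85e-06) and -2.25 ± 0.32 with the combination (4.75-fold lower, adjusted p = 1.03e-05). After correction both falls were smaller and still passed the test, at -1.31 ± 0.28 (adjusted p = 0.00216) and -1.40 ± 0.27 (adjusted p = 0.000683). These values rest on 15 to 35 counts per library in the tumors given Telaglenastat. Palbociclib gave no detectable difference (-0.06 ± 0.27, adjusted p = 0.948).

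**Figure D3:**
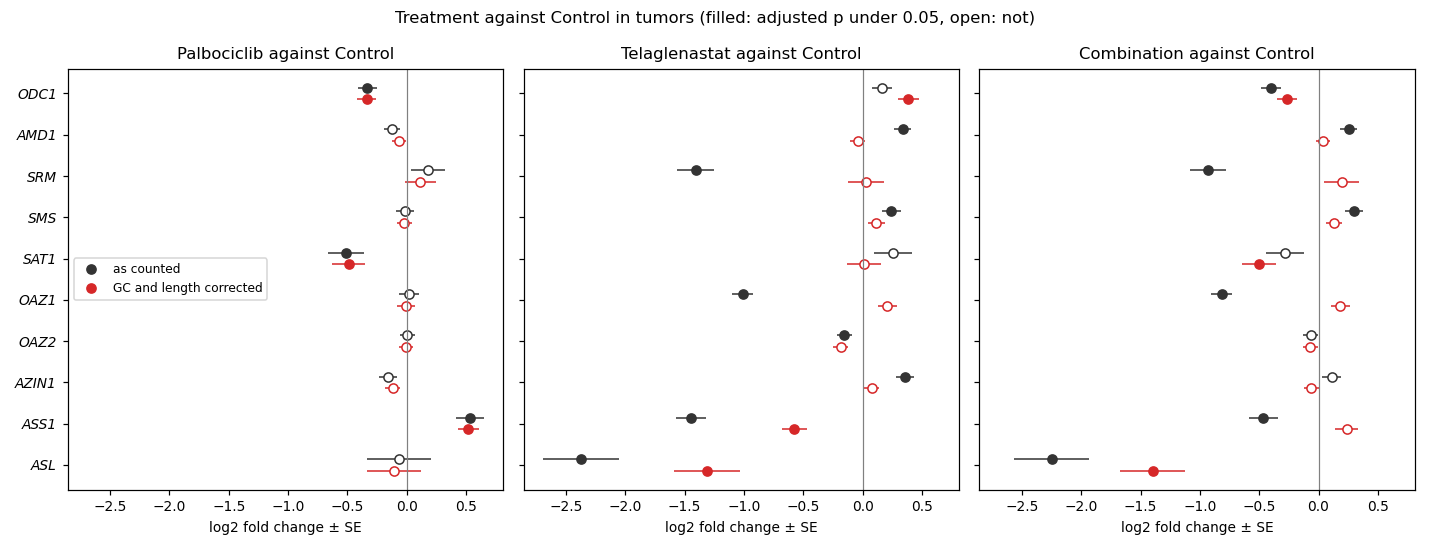
Log2 fold change (± SE) of each of the 10 genes against Control tumors under each of the 3 treatments, as counted (black) and after the GC and length correction (red), with filled points for an adjusted p under 0.05. The corrected points of SRM and OAZ1 lie at or above 0 where the counted ones lie near -1, whereas those of ASL stay below -1 and those of ODC1, SAT1 and ASS1 with Palbociclib hardly move.

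Set against each single drug, the combination differed from Palbociclib alone in 7 members (all tested genes: 47.6%; 4 lower, SRM, OAZ1, ASS1 and ASL, and 3 higher, AMD1, SMS and AZIN1). After correction 2 members differed (all: 15.3%), the lower ASS1 and ASL. From Telaglenastat alone it differed in 5 members (all: 18.8%; ODC1, SAT1 and AZIN1 lower, SRM and ASS1 higher, the SRM call being lost in 6 of the 8 fits that left out 1 library), and in 3 after correction (all: 15.7%; ODC1 and SAT1 lower, ASS1 higher). No member departed from the sum of the single-drug log2 effects in tumors (edgeR, all tested genes: 0.0673%). By edgeR 1 member, ASS1, had an unadjusted p under 0.05 (0.45 ± 0.17, adjusted p = 0.383), and DESeq2 called 0 members, with 2 at an unadjusted p under 0.05. For ODC1 the departure was -0.23 ± 0.11 (adjusted p = 0.529).

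In the cultures, no member differed between treatments past the threshold. Against Control, 0% of all tested genes differed with Palbociclib, 0% with Telaglenastat and 0.00715% with the combination, as did 0% for the combination against either single drug and for its departure from additivity. In each of the 5 pairwise comparisons edgeR gave 1 member an unadjusted p under 0.05 (SAT1 in 3, ASL and OAZ1 in 1 each) and 0 in the test of additivity, and DESeq2 called 0 members. SAT1 had the lowest unadjusted p. Its level, in CPM scaled over the cultures, was 178, 154 and 171 in the Control lines, 160, 231 and 105 in the Palbociclib lines, 541, 229 and 330 in the Telaglenastat lines and 408, 230 and 231 in the combination lines. All lines from tumors given Telaglenastat were above all Control lines, with a log2 difference of 1.13 ± 0.32 for Telaglenastat (unadjusted p = 0.00371, adjusted p = 0.711) and 0.79 ± 0.32 for the combination (unadjusted p = 0.0283, adjusted p = 0.681).

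The argininosuccinate genes varied widely among lines of the same group. ASS1 was 29.6, 11.7 and 29.01 CPM in the Control lines and 43.7, 51.2 and 22.03 in the Telaglenastat lines, a difference of 0.74 ± 0.37 (adjusted p = 0.784). ASL was 6.41, 3.57 and 10.9 CPM in the Control lines, 2.58, 1.52 and 2.68 in the Palbociclib lines, 3.07, 15.3 and 4.91 in the Telaglenastat lines and 3.33, 3.02 and 5.14 in the combination lines. All 3 Palbociclib lines were below all 3 Control lines for ASL (-1.60 ± 0.57, unadjusted p = 0.0143, adjusted p = 0.795). For ASL and SAT1 alike, the share of all genes whose 3 lines per group separate this way was not computed. Telaglenastat culture 2 had the highest value of SRM (43.4 CPM), OAZ1 (301 CPM), ASS1 and ASL of all cultures, and a GC slope of 0.418 against -0.132 to 0.178 in the other 11. After correction its levels were 20.3, 157, 32.6 and 8.88 CPM.

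Between Control tumors and Control cultures, the breakdown gene SAT1 and the argininosuccinate genes ASS1 and ASL were higher in the tumors, and the synthesis genes ODC1, AMD1 and SMS and the antizyme inhibitor AZIN1 were higher in the cultures as counted. Of 10 members, 7 differed as counted (all tested genes: 45.9%), 3 higher and 4 lower in tumors, and 7 after correction (all: 40.5%), 2 higher and 5 lower. SAT1, in CPM scaled over all 28 libraries, averaged 858 ± 54.2 (SD, n = 3) across the tumors and 174 ± 12.5 (SD, n = 3) across the cultures, a log2 difference of 2.30 ± 0.27 (adjusted p = 1.46e-07, and 2.54 with adjusted p = 1.28e-08 after correction). ASS1 was higher in tumors by 1.38 ± 0.27 (adjusted p = 0.000151, and 0.89 with adjusted p = 0.00159 after correction). ASL was higher by 1.12 ± 0.44 (adjusted p = 0.0398), a call lost in 5 of the 6 fits that left out 1 library and after correction (0.52, adjusted p = 0.219).

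ODC1 went the other way. On the same scale it averaged 368 ± 16.5 CPM (SD, n = 3) across the Control tumors against 701 ± 61.4 (SD, n = 3) across the Control cultures, a log2 difference of -0.93 ± 0.14 (adjusted p = 8.49e-06, and -1.04 with adjusted p = 1.18e-06 after correction). AMD1 (-0.63 ± 0.10, adjusted p = 7.29e-06) and SMS (-0.63 ± 0.15, adjusted p = 0.000942) were also lower in tumors, and stayed so after correction (-0.35 and -0.49). For SRM and OAZ1 the counted difference was -0.07 ± 0.24 (adjusted p = 0.833) and -0.08 ± 0.15 (adjusted p = 0.689), and the corrected one -0.94 (adjusted p = 1.91e-05) and -0.82 (adjusted p = 3.37e-06). AZIN1 was lower in tumors as counted only (-0.29 ± 0.10, adjusted p = 0.0134, and -0.08 with adjusted p = 0.449 after correction), a call also lost without Control culture 2, Control tumor 1 or the filter on low counts (-0.18, adjusted p = 0.398), and OAZ2 did not pass (0.12 ± 0.08, adjusted p = 0.226). The marker sums, as counted, moved with this contrast too. In Control cultures the 8 fibroblast markers summed to 4.22 to 5.34 CPM, with DCN, LUM, THY1 and COL1A2 at 0, and the 7 epithelial markers to 1482 to 2036, both below the Control tumors. Their part in these differences was not tested.

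**Figure D4:**
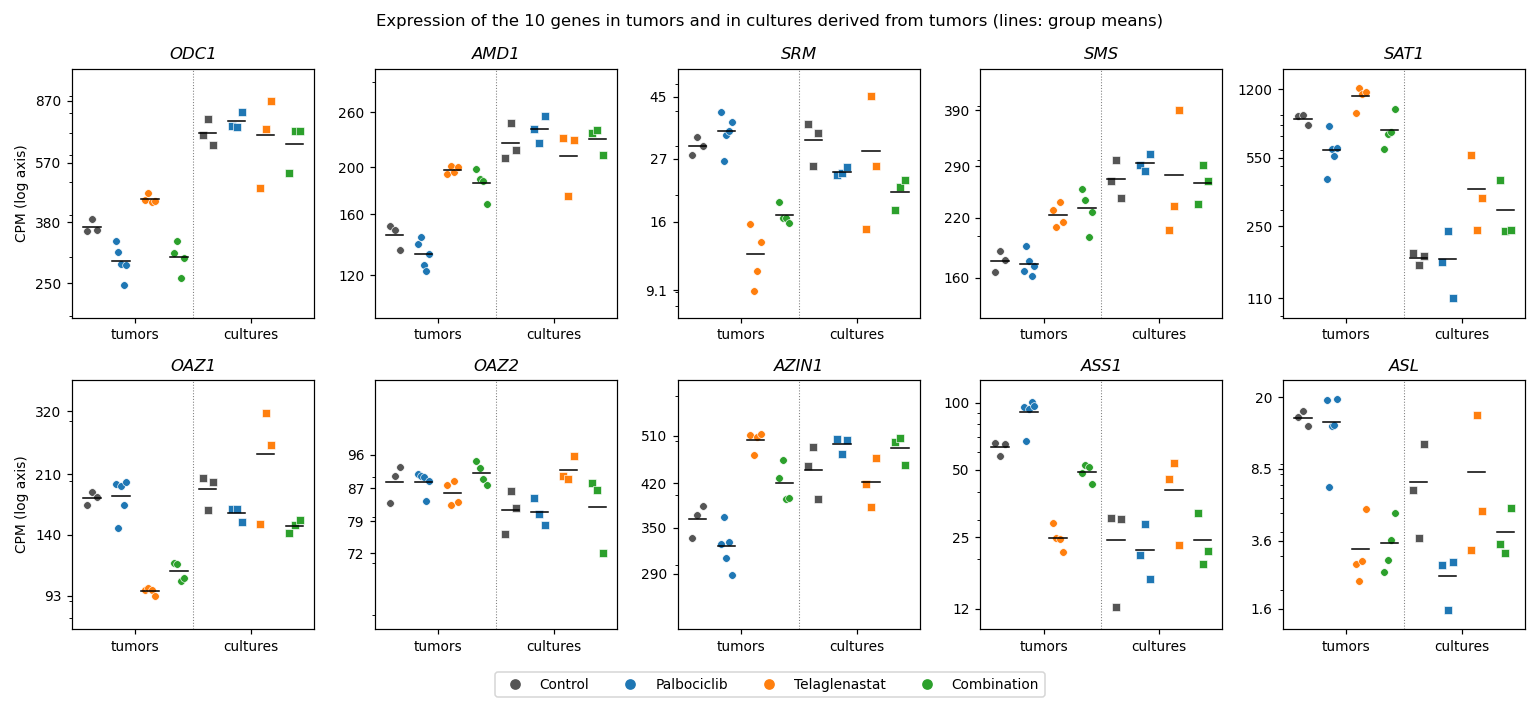
CPM scaled over all 28 libraries (log axes) of the 10 genes in the 4 tumor groups (circles) and the 4 culture groups (squares), with 1 point per library and a line at each group mean. ODC1 is higher in every culture than in every tumor, and SAT1 is lower in all cultures but 1 than in every tumor. ODC1, AMD1, SRM, SMS, SAT1, OAZ1 and ASL scatter most widely among the Telaglenastat cultures.

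Ranked over the 8 conditions by mean CPM on this common scale, ODC1 ran from 756 in Palbociclib cultures to 292 in Palbociclib tumors. Its 4 culture groups overlapped one another and stood above all tumor groups, and Telaglenastat tumors (445), Control tumors (368) and combination tumors (299.7) were separate from their neighbours above. SAT1 ran from 1108 in Telaglenastat tumors, separate from Control tumors, to 171 in Palbociclib cultures, a 6.46-fold span. ASL spanned 6.65-fold, from 15.6 CPM in Control tumors to 2.35 in Palbociclib cultures, but each group overlapped its neighbour in rank. ASS1 ran from 90.8 CPM in Palbociclib tumors to 21.9 in Palbociclib cultures, a 4.15-fold span in which the first 3 tumor groups were separate and the rest overlapped. SRM spanned 2.78-fold, ODC1 2.59-fold, OAZ1 2.5-fold, AMD1 1.81-fold, SMS 1.71-fold and AZIN1 1.54-fold. Per kilobase of exon, which allows genes to be compared, SAT1 was the most abundant member in tumors (median 340 CPM per kb, scaled over tumors) and ODC1 in cultures (median 231 CPM per kb, scaled over cultures), and ASL was the least abundant in both (1.97 and 1.08).

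The Telaglenastat effect differed between tumors and cultures for 6 members (all tested genes: 34.1%). The log2 effect in tumors minus that in cultures was -2.47 ± 0.63 for ASL (adjusted p = 0.00383), -2.10 ± 0.37 for ASS1 (adjusted p = 0.000245), -1.24 ± 0.21 for OAZ1 (adjusted p = 0.000199) and -1.17 ± 0.33 for SRM (adjusted p = 0.0084). It was 0.54 ± 0.13 for AMD1 (adjusted p = 0.00314) and 0.54 ± 0.13 for AZIN1 (adjusted p = 0.00279), and both calls were lost without the filter on low counts (0.41 for each, adjusted p = 0.109 and 0.0903). After correction 2 members passed (all: 4.8%), ASS1 at -1.22 ± 0.30 (adjusted p = 0.0159) and OAZ2 at -0.39 ± 0.11 (adjusted p = 0.0471), and ASL was at -1.25 ± 0.47 (adjusted p = 0.128). The ASL and SRM calls were also lost without Telaglenastat culture 2, where the log2 differences were -1.48 and -0.66. The OAZ1 and ASS1 calls as counted were kept whichever library was left out, at -1.49 to -0.994 and -2.38 to -1.78. No member passed this test for Palbociclib (all: 1.39%) or the combination (all: 2.91%) by edgeR, with 3 members at an unadjusted p under 0.05 in each, or by DESeq2, with 3 and 2. For ODC1 the Palbociclib difference was -0.44 ± 0.19 (adjusted p = 0.292).

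Beyond the members, 36 other genes of polyamine transport and oxidation, the urea cycle, proline and arginine metabolism, methionine salvage and hypusine formation were tested in tumors. With Palbociclib 1 rose (all tested genes: 2.55%) and 0 fell (all: 3.6%), and after correction 2 rose (all: 3.72%) and 0 fell (all: 4%). The gene that rose was ALDH18A1, which makes the proline and ornithine precursor from glutamate, at 176 ± 4.16 CPM (SD, n = 5) against 151 ± 3.12 (SD, n = 3), a log2 difference of 0.22 ± 0.06 (adjusted p = 0.0273, and 0.22 with adjusted p = 0.0158 after correction). With Telaglenastat 13 rose (all: 22.6%) and 14 fell (all: 28.5%), which became 1 (all: 6.33%) and 6 (all: 8.4%) after correction. With the combination 8 rose (all: 17.6%) and 12 fell (all: 26.9%), which became 3 (all: 13.3%) and 6 (all: 13.1%) after correction. The median log2 fold change of these genes was -0.05, -0.24 and -0.32 in these comparisons (corrected 0.0053, 0.02 and -0.03), beside 0.00067, 0.03 and -0.04 over all genes tested. ATP13A2, a lysosomal polyamine exporter, fell from 19.4 ± 2.19 CPM (SD, n = 3) to 4.38 ± 0.599 (SD, n = 4) with Telaglenastat (-2.14, adjusted p = 2.67e-07, and -0.69 with adjusted p = 0.0188 after correction) and to 5.73 ± 0.801 (SD, n = 4) with the combination (-1.75, adjusted p = 3.07e-06, and -0.54 with adjusted p = 0.0381 after correction). ALDH4A1, a mitochondrial enzyme of proline breakdown, went from 10.2 CPM in Control to 2.55 with Telaglenastat and 2.39 with the combination as counted, and after correction passed with the combination alone (-1.14, adjusted p = 0.00754, against -0.85, adjusted p = 0.0592).

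Among the genes that rose, MAT2A, which makes the S-adenosylmethionine that AMD1 uses, was 269 ± 58 CPM (SD, n = 3) in Control, 386 ± 31.8 (SD, n = 4) in Telaglenastat and 427 ± 49 (SD, n = 4) in combination tumors. Its log2 fold change was 0.52 ± 0.12 (adjusted p = 0.000878, and 0.33 with adjusted p = 0.062 after correction) and 0.67 ± 0.12 (adjusted p = 9.72e-05, and 0.51 with adjusted p = 0.00275 after correction). SLC25A15, the mitochondrial ornithine carrier, rose with Telaglenastat (0.56 ± 0.22, adjusted p = 0.0395, and 0.68 with adjusted p = 0.0402 after correction), and SLC18B1, a vesicular polyamine transporter, rose with the combination (0.44 ± 0.10, adjusted p = 0.000984, and 0.21 with adjusted p = 0.109 after correction). Of the 32 genes of this list tested in cultures, 0 passed in any comparison.

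MYC RNA was also counted in the tumor groups. It was 190 ± 18 CPM (SD, n = 3) in Control, 213 ± 16.4 (SD, n = 5) in Palbociclib, 140 ± 19.3 (SD, n = 4) in Telaglenastat and 190 ± 25.9 (SD, n = 4) in combination tumors. The log2 fold change of MYC was 0.17 ± 0.10 (adjusted p = 0.433), -0.43 ± 0.11 (adjusted p = 0.00246) and 0.0037 ± 0.11 (adjusted p = 0.983) for Palbociclib, Telaglenastat and the combination. After correction these were 0.17 (adjusted p = 0.425), 0.08 (adjusted p = 0.724) and 0.40 (adjusted p = 0.0112). These libraries measure neither MYC protein nor its activity, and a part of MYC in the ODC1 differences was not tested.

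For each member, the protein-coding gene most like it was taken as the one with the highest Pearson correlation of log2 CPM over the 28 libraries, after the tumor and culture means had been subtracted from each. The libraries share the treatment groups and the GC slopes described above, so these values describe likeness in these libraries alone. ODC1 was most like HNRNPM (r = 0.936), AMD1 like UBE2K (0.949), SRM like ELOF1 (0.956) and SMS like PRDX1 (0.972). SAT1 was most like CPE (0.834). OAZ1 was most like PHB2 (0.976), AZIN1 like RBBP4 (0.954), ASS1 like PSAP (0.95) and ASL like MYO9B (0.959), while the steadiest member, OAZ2, had the lowest best match (RNASET2, 0.667). The GC content of these partners was 54.9% for HNRNPM, 36.8% for UBE2K, 60.2% for ELOF1, 51.4% for PRDX1 and 47.5% for CPE. It was 56.9% for PHB2, 48.3% for RNASET2, 41.6% for RBBP4, 54.7% for PSAP and 60.4% for MYO9B.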

How the data were processed

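RNA was sequenced from 16 HCT116 xenograft tumors and 12 derived cultures as 60-base single-end reads. Per the methods of the study, the authors made FASTQ files with CASAVA 1.8, aligned them to the Ensembl reference genome (hg38 in the submitters' processing notes) and deposited raw counts per gene and library from STAR, with no normalization and no pooling. The annotation release, the strand setting of the counting and the handling of mouse reads are not given in the sources used here. Pseudogenes, antisense and overlapping genes could therefore share reads with a member. Rows named as such held few counts over all libraries (ASS1 pseudogenes 232 against 10774 for ASS1, the ASL pseudogene 15 against 1875, AZIN1-AS1 141 against 97415, AC100830.3 antisense to OAZ2 23, JSRP1 antisense to OAZ1 4). No row was found for AC005258.1 and AC068533.4, which overlap exons of OAZ1 and ASL on the same strand. How reads matching several genes were counted is not given either, so these counts do not measure the sharing.

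Counts were tested in R 4.3.3 with edgeR 4.0.16 (quasi-likelihood test, filterByExpr at its minimum count of 10, TMM scaling, two-sided, Benjamini-Hochberg adjustment over all genes tested, threshold 0.05). The 16 tumors (14848 genes) and the 12 cultures (13985 genes) were fitted separately, and all 28 libraries together (15466 genes) for contrasts between tumors and cultures, with samples grouped by treatment as labelled. Per the methods each mouse was injected on 1 flank and the cultures were separate lines, so p-values rest on the spread between tumors or between lines. CPM values are scaled by TMM within tumors or within cultures, or over all 28 libraries where stated. GC content and length came from GENCODE 29 (GRCh38) transcripts, to which 57940 of 58278 identifiers matched (unmatched rows held 0.0287% of counts). The correction removed from each library a robust spline trend (4 degrees of freedom each, MASS 7.3.60.0.1) on GC content and log2 exon length. Alternatives were DESeq2 1.42.0, its size factors in edgeR, no filter on low counts, the replicate number as a block, the correction with and without that block, and leaving out each library. The edgeR fit of the tumors was tested on simulated counts, for Telaglenastat against Control only and with no GC slope in the counts. The other fits, the alternatives and the correction were not tested in this way. Total counts limit the precision of low genes (SRM, ASL), and errors given cover the spread between libraries.

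All 10 genes and, from a list of 43 related genes, those past the threshold with the greatest changes (at most 2 rising and 2 falling per treatment, mean of at least 1 log2 CPM) were named, as were MYC and the gene nearest in pattern to each member. The members and lists were chosen with earlier results of these data known.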

Additional observations from a re-analysis of the deposited data

Results flagged for a closer look

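For 6 members (all tested genes: 34.1%) the effect of Telaglenastat differed between tumors and cultures, by the test of that difference over all 28 libraries (edgeR). The log2 effect in tumors minus that in cultures was 0.54 for AMD1, the decarboxylase that supplies aminopropyl groups, and 0.54 for AZIN1, the antizyme inhibitor. It was -1.17 for the spermidine synthase SRM, -1.24 for the antizyme OAZ1, -2.10 for ASS1 and -2.47 for ASL. Without Telaglenastat culture 2 the SRM and ASL calls were lost, at -0.66 (adjusted p = 0.0808) and -1.48 (adjusted p = 0.0588), and without the filter on low counts those of AMD1 (0.41, adjusted p = 0.109) and AZIN1 (0.41, adjusted p = 0.0903). After the GC and length correction ASS1 alone of these passed (all tested genes: 4.8%), at -1.22 (adjusted p = 0.0159). The GC slope moved with this contrast and its part in the other 5 differences was not tested separately.

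The values of each member in each group of 4 or 5 tumors were examined for a library far from the rest. Of these 30 sets, 2 held such a library, where chance flags about 1 in 20. The sets share the same tumors, so they are not independent. ASS1 in Palbociclib tumor 2 was the lowest of its group at 72.6 CPM, with a gap to the next tumor of 0.787 of the group's range on the log2 scale. OAZ2 in Palbociclib tumor 4 was the lowest of its group at 90.5 CPM, with a gap of 0.817 of the range on the log2 scale, although the highest tumor was only at 96.9 CPM.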

How the results depend on the processing

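Of 160 pairs of a member and a comparison, 43 passed the threshold. Of these 43, DESeq2 kept the call and direction of 41, its size factors in edgeR 42, the fit with no filter 39 and the replicate block 42. The GC and length correction kept 18, lost 15 and turned the sign of 10, and the same correction with the block kept 17, lost 16 and turned 10. Leaving out 1 library lost the call in 37 fits over 13 pairs. Among the other pairs, DESeq2 gained 2 calls, its size factors in edgeR 1, the fit with no filter 15 and the block 1. The correction gained 5, the correction with the block 4, and leaving out 1 library gained a call in 6 fits. The fall of SAT1 with the combination against Control in tumors was gained with the block and with no filter. Same-numbered libraries did not deviate together (correlations of -0.13 to 0.09 over 21 tumor pairs and -0.42 to 0.14 over 18 culture pairs), so the numbers were not taken as pairs.

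With the correction alone, then with the block and the correction, the log2 fold changes that turned sign were as follows. With Telaglenastat against Control, AMD1 was at -0.041 and -0.024, SRM at 0.026 and 0.026 and OAZ1 at 0.21 and 0.25. With the combination against Control, SRM was at 0.19 and 0.20, OAZ1 at 0.18 and 0.22 and ASS1 at 0.24 and 0.26. Against Palbociclib, the combination had SRM at 0.079 and 0.066 and OAZ1 at 0.19 and 0.19. For the Telaglenastat effect in tumors minus that in cultures, SRM was at 0.47 and 0.48 and OAZ1 at 0.032 and 0.074. None of these values passed the threshold after its sign had turned.

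Under both corrected fits (with the block second), members past the threshold in tumors numbered 3 and 3 for Telaglenastat, 3 and 3 for the combination, 2 and 1 for the combination against Palbociclib, 3 and 3 against Telaglenastat, and 2 and 1 for the Telaglenastat difference between tumors and cultures. With no filter on low counts, members past the threshold in cultures numbered 1 for Palbociclib, 2 for Telaglenastat, 1 for the combination, 1 for the combination against Palbociclib and 2 against Telaglenastat, and 2 each for the Palbociclib and combination differences between tumors and cultures. Leaving out 1 library gave 0 to 3 members for Palbociclib against Control in tumors (0 without Control tumor 2), 3 to 4 for the combination against Telaglenastat in tumors and 0 to 1 in cultures (1 without Telaglenastat culture 1). For the fits with the block, with no filter and with 1 library left out, the share of all genes past the threshold is not given here. These counts therefore describe the members alone and show nothing particular to them. The causes were not tested. With 11 to 216 counts per library, ASL is the member whose precision depth limits most.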
